A study of Mus musculus with 15 samples.

Results

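Astrocytes were taken as the cells of the deposited cell table whose cluster name is Astro once a trailing number is removed, at both ages and under every treatment. They numbered 1816 of the 35360 retained cells (5.14%), 1495 of 24822 at P60 and 321 of 10538 at P21. The cells come from the prefrontal cortex (PFC) of male C57BL/6N mice, and per the methods each biological replicate is the pooled tissue of 2 mice. The 12 P60 libraries form 6 groups of 2: saline or cocaine intravenous self-administration (IVSA), collected at the end of the maintenance phase, at 48 h or at 15 days of withdrawal. The 3 P21 libraries are of untreated juvenile mice. The methods name fewer P21 mice than 3 separate pairs would need, so P21 libraries may share animals, and p-values of the age comparison may then be too small. The labels give 8 to 10 weeks as the age of the P60 mice, which had all been fitted with a catheter and trained to press a lever, so that P21 and P60 saline mice differ in this handling as well as in age. The labels name the nucleus accumbens as tissue in one field and the PFC in the titles and source, and the PFC is used here. Nothing in the labels ties a library to named animals, so p-values measure the spread between libraries, and the pooling hides differences between mice.

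Astrocytes are the glia that take up glutamate and potassium released by neurons, supply them with lactate and cholesterol, and join blood vessels to the tissue through endfeet rich in the water channel aquaporin 4. They are coupled to each other by gap junctions of connexin 43 and connexin 30. Cortical astrocytes multiply in the first weeks after birth and then lose genes of immature glia while their fine processes fill in around synapses. They also answer injury, cytokines and stress within minutes to hours by inducing immediate early genes, and later by raising the intermediate filament Gfap.

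The label was set beside 3 markers fixed for it: Gja1 (connexin 43), Aqp4 (aquaporin 4) and Acsbg1 (a lipid-activating acyl-CoA synthetase of glia). Levels are in CPM: the UMIs of all astrocytes of a library were summed, and each gene was scaled to the usual common total over the 25978 genes that are neither mitochondrial nor ribosomal. Over the 11 P60 libraries with at least 10 astrocytes, Gja1 ran from 775 through a median of 1016 to 1499 CPM, Aqp4 from 524 through 669 to 881 CPM, and Acsbg1 from 849 through 1154 to 1492 CPM. The P21 libraries gave 1061, 950 and 1039 CPM for Gja1, 495, 766 and 943 CPM for Aqp4, and 1052, 1018 and 681 CPM for Acsbg1. The next highest type at P60 was endothelial cells for Gja1, at 33.7 ± 6.94 CPM (SD, n = 12), and oligodendrocyte precursors for Aqp4, at 34.3 ± 13.4 CPM (SD, n = 11). With every cell thinned to 1500 UMIs, 62.2% to 91.8% of P60 astrocytes held a Gja1 UMI, against 0% to 3.03% of mature oligodendrocytes, a type that should lack it. Median depths were 2579 to 3818 UMIs in those astrocytes and 2360 to 4261 in those oligodendrocytes, and the unthinned shares were 88.2% to 98.2% and 0% to 5.71%. All 3 markers were thus high in these cells at both ages. The paper names astrocytes by Gja1 and the cells were clustered on their expression, so this describes the label without testing it. At P21, Gja1 was at 198 CPM in oligodendrocyte precursors (1 library) and at 10.6 to 197 CPM in microglia. The match between cluster and deposited class was less close at P21, where 15 of the 321 cells carried another class, 14 of them microglia, and where 306 of the 405 cells classed as astrocytes lay in the astrocyte cluster.

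Libraries differed in depth and in RNA of other cells, partly along the time points, and these values are given before any comparison. P60 saline library 3 (maintenance) held 8 astrocytes and was left out of tests, which leaves saline at maintenance with library 2 alone. The other 14 libraries held 42 to 254 astrocytes and 103194 to 993945 astrocyte UMIs. RNA of neurons followed the time points: the summed level of 14 neuron markers in astrocytes was 5441 and 9812 CPM in the saline and 5592 and 8640 CPM in the cocaine libraries at 15 days, against 402 to 1894 CPM in the other P60 libraries with at least 10 astrocytes. The P21 libraries held 1457, 1357 and 786 CPM of the same markers. Hemoglobin RNA (4 genes) was at 5257 CPM in library 2, at 21708 CPM in library 7, at 11702 to 24805 CPM in the 4 libraries at 15 days and at 7419 CPM in P21 library 1, while the other libraries held 82.4 to 236 CPM. The 10 microglia markers summed to 1730 CPM in P21 library 1, to 0 CPM in P21 library 2 and to 410 CPM in P21 library 3, against 64.2 to 391 CPM in the tested P60 saline libraries. The 10 endothelial markers summed to 501, 38.8 and 506 CPM at P21 and to 22.5 to 296 CPM in those saline libraries, and the 10 oligodendrocyte markers to 742 to 1912 CPM and to 338 to 668 CPM. The part that RNA of other cells plays in the results was not tested except where a value without the cells or libraries is given. Libraries shared at most 27 cell barcodes, and at most 1 among astrocytes.

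**Figure D1:**
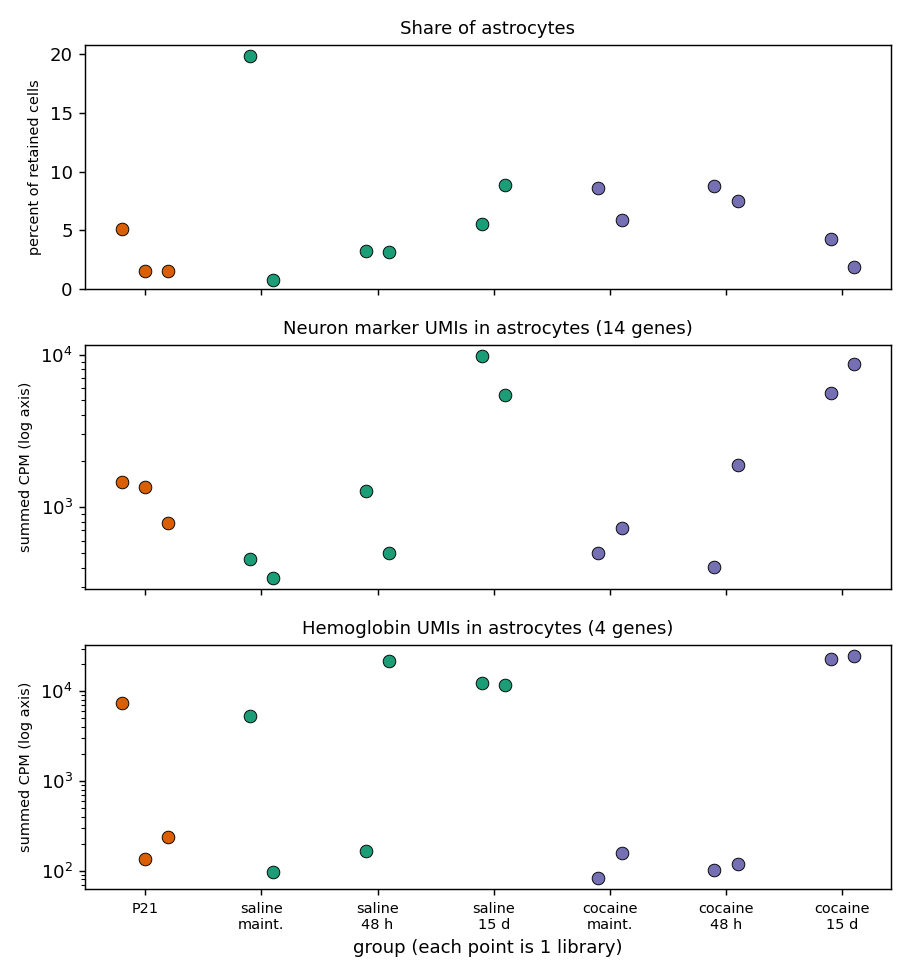
Share of astrocytes among retained cells (percent, top), summed neuron marker UMIs (CPM, log axis, middle) and summed hemoglobin UMIs (CPM, log axis, bottom) in the astrocytes of each library, with 1 point per library and colour for P21, saline and cocaine. The 4 libraries at 15 days hold the highest neuron marker levels, 5441 to 9812 CPM.

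Astrocytes made up 1.505% to 5.11% of the retained cells at P21 and 0.758% to 19.9% in the P60 saline libraries. The spread within P60 saline was larger than the distance between the ages. Both extremes were the maintenance libraries, at 19.9% and 0.758%, while the 4 withdrawal libraries lay between 3.14% and 8.84%. The P21 mean was 4.17 percentage points lower, with p = 0.357 by a two-sided exact permutation test over 84 regroupings, and ran from -5.40 to -1.57 points without single libraries (permutation p 0.179 to 0.643). Cocaine libraries held 1.87% to 8.83% astrocytes. Averaged within the 3 time points, cocaine lay 0.743 percentage points below saline, with p = 0.861 in an exact permutation test over 216 regroupings within time points. The direction turned among non-neuronal cells alone (0.189 points), and the value ran from -3.93 to 2.44 points without single libraries, the highest without saline library 2. Binomial intervals (exact Clopper-Pearson, 95%) ran, for example, from 4.48% to 5.80% for P21 library 1 and from 17.7% to 22.2% for saline library 2, so that counting error is small beside the spread between libraries. In such dissociated tissue, fewer astrocytes and a poorer yield of astrocytes cannot be told apart. Median UMIs per astrocyte were 3234, 2526 and 2331 at P21 and 2782 to 4039 in the 5 tested P60 saline libraries, a difference of 672 UMIs with p = 0.143 by the two-sided exact permutation test (56 regroupings).

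At P60, 718 genes reached 200 CPM in astrocytes, 193 of them were higher there than in any other type, and 26 exceeded the next type more than 10 times. The cells were clustered on these genes, so their levels are a description without a test. The gene with the widest margin was Gjb6 (connexin 30), at 794 ± 222 CPM (SD, n = 11) against 8.00 ± 16.5 CPM in newly formed oligodendrocytes, a ratio of 99.3. Gja1, its partner in gap junctions, had a ratio of 31.6. Agxt2l1, which breaks down phosphoethanolamine, stood at 209 ± 45.4 CPM with a ratio of 56.3, and Cyp4f15, a fatty acid hydroxylase, at 227 ± 39.9 CPM with a ratio of 55.8. Mlc1, a membrane protein of endfeet, reached 765 ± 124 CPM with a ratio of 54.0, ahead of Aqp4 with 20.4. Aldh1l1, the folate enzyme widely used to mark astrocytes, was at 214 ± 25.1 CPM with a ratio of 41.4, and Sox9, a transcription factor of astrocytes and their precursors, at 398 ± 83.6 CPM with a ratio of 29.9.

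Prodh (proline dehydrogenase) had a ratio of 25.1, Slc25a18 (a mitochondrial glutamate carrier) 20.8, Lcat (the enzyme that esterifies cholesterol on lipoproteins) 15.5, Hsd11b1 (which regenerates glucocorticoid) 14.6, and Acsbg1 30.3. Slc39a12, a zinc transporter, had a ratio of 38.1, Fgfr3, a growth factor receptor, 23.8, and Cldn10, a claudin, 14.6. Plcd4, Ezr and Fam176a, at ratios of 29.4, 19.95 and 15.9, completed the 20 together with Aldoc. Aldoc, the aldolase of astrocytes, was the most abundant of them at 13160 ± 2536 CPM, with 17.9 times the level of oligodendrocyte precursors. The same 20 genes in P21 astrocytes ran from 48.2 CPM for Agxt2l1 to 11253 CPM for Aldoc. The glutamate transporters Slc1a2 and Slc1a3, at 4402 ± 347 and 3309 ± 579 CPM, had narrower margins of 9.21 and 8.43 times over oligodendrocyte precursors. Glutamine synthetase (Glul), at 7863 ± 1681 CPM, was 2.13 times the level of mature oligodendrocytes.

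**Figure D2:**
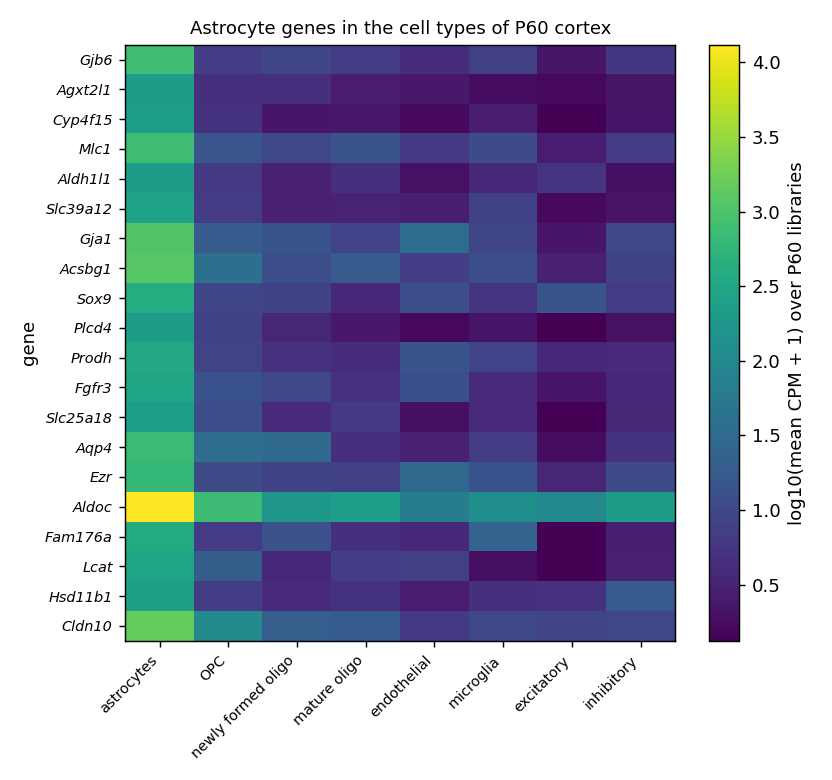
Heat map of the 20 genes with the largest ratio of astrocytes over the next cell type at P60, as log10(mean CPM + 1) over the libraries with at least 10 cells of a type. Rows are genes from Gjb6 (ratio 99.3) down to Cldn10 (14.6) and columns are cell types, with astrocytes brightest in every row.

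P60 astrocytes carry 8 deposited sub-clusters, numbered Astro 1 to 8, while P21 astrocytes carry none. They held 114 to 341 cells each and each was found in 11 or 12 of the 12 P60 libraries. Because the sub-clusters were built from these genes, their leading genes are again a description. Levels below are over the summed P60 UMIs of a sub-cluster against those of all other P60 astrocytes. Astro 3, with 203 cells and 10.1% to 21.8% of the astrocytes of a library with at least 10, was led by Myoc (290 against 0.862 CPM) and Gfap (774 against 10.1 CPM), genes known from astrocytes of the cortical surface. It also held the highest levels of Id3 (1907 against 498 CPM) and Id1 (248 against 79.1 CPM), inhibitors of helix-loop-helix factors. Gfap was thus a gene of a minority of P60 astrocytes, at 0 CPM in Astro 7 and at 98.4 CPM or less in every sub-cluster except Astro 3.

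The other sub-clusters were each set apart by few genes. Astro 2 (158 cells) was led by Rpe65, the retinoid isomerase, at 243 against 3.72 CPM, followed by neuronal genes such as C1ql3, Crym and Rtn1. Its neuron markers summed to 9792 CPM and those of Astro 1 (140 cells) to 8596 CPM, against 1197 to 3333 CPM elsewhere, and the leading genes of Astro 1 (Chgb, Gng3, Atp2b1, Pcp4 and Gap43) are neuronal too. These neuronal genes varied widely between libraries with at least 10 cells of the sub-cluster. Rtn1 ran from 0 to 3467 CPM over 8 libraries in Astro 2, and Chgb from 0 to 640 CPM over 4 libraries in Astro 1. Rpe65 ran from 145 to 512 CPM over the same 8. Astro 4 (116 cells) was led by the noncoding gene Gm16615 at 356 against 28.5 CPM. Astro 5 (207 cells) was led by Ptgds (746 against 81.5 CPM), which ran from 0 to 2918 CPM over the 9 libraries with at least 10 Astro 5 cells and stood at 20935 CPM in mature oligodendrocytes against 126 ± 216 CPM in astrocytes, and by Ppp1r3g, a glycogen-targeting subunit of protein phosphatase 1 (352 against 38.8 CPM). Astro 6 (114 cells) was led by Greb1 at 319 against 8.86 CPM, and Astro 7 (341 cells) by Agxt2l1 at 421 against 158 CPM. The next 4 genes of Astro 7 and the first 4 of Astro 8 (216 cells) were hemoglobin genes, which in Astro 8 were 2.62 to 2.67 times the level of the other astrocytes. They too depended on the library: over 9 libraries Hba-a1 ran from 0 to 5491 CPM in Astro 7 and from 0 to 9888 CPM in Astro 8. Nupr1, a stress-induced nuclear protein, was the fifth of Astro 8 at 460 against 223 CPM. Gja1 lay between 647 and 1114 CPM in all 8.

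**Figure D3:**
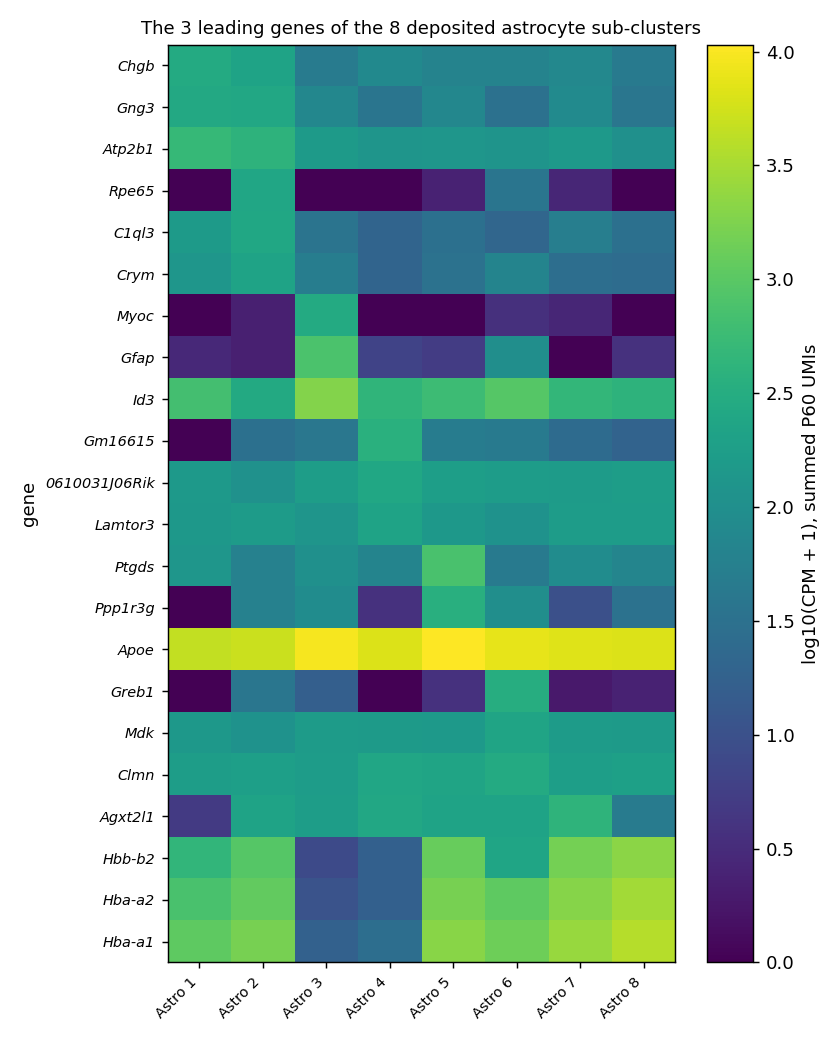
Heat map of the 3 leading genes of each of the 8 deposited P60 astrocyte sub-clusters as log10(CPM + 1) of the summed UMIs, with genes in rows and sub-clusters in columns. Myoc and Gfap are bright in Astro 3, Rpe65 in Astro 2, Gm16615 in Astro 4 and Greb1 in Astro 6, while hemoglobin genes are low in Astro 3 and Astro 4.

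Most genes called between the ages were lower in P60 than in P21 astrocytes, among them 7 of 20 tested immediate early genes. UMIs summed over the astrocytes of a library were compared between the 3 P21 and the 5 tested P60 saline libraries with edgeR, and a gene was called at an adjusted p under 0.05 and a change above 1.5-fold. Of 5788 genes tested, 57 (0.985%) were lower and 7 (0.121%) higher at P60. In 62 of the 64, the libraries of the 2 ages did not overlap. The 64 were chosen by a test on these same libraries, so this is no separate support. The share without overlap over all genes tested is not given here. The number of calls rested on the libraries used. It was 34, 25 and 192 without P21 libraries 2, 3 and 1. It was 33 and 34 without saline libraries 5 and 7, and 97 without library 12. With P21 libraries 2 and 3 summed as 1 it was 34, 32 of them among the 64. It was 158 with the maintenance and 48 h saline libraries alone (47 of the 64 among them) and 276 with the 15-day ones alone (51 of the 64). It was 483 with cells taken by deposited class, 352 with no filter on low counts, 11 with Bonferroni adjustment and, in a fit chosen after seeing the data, 235 with the neuron marker share as a covariate. The 11 tested neuron markers all had higher fitted values at P60, by a median of 1.00 on the log2 scale, though none was called. Only the 15-day saline libraries, at 5441 and 9812 CPM of the full list, lay above P21 (786 to 1457 CPM). The maintenance and 48 h saline libraries held 454 to 1270 CPM. The 6 tested microglia markers were all lower, with a median of -2.59, and none of them was called. The 4 tested endothelial markers were all lower too (median -1.28), as were 4 of 5 oligodendrocyte markers (median -0.63), again with 0 called. Using only astrocytes with fewer than 2 neuron marker UMIs gave 126 calls, 32 of them among the 64, from 1773 genes tested. Using only cells that class and cluster both name as astrocytes gave 52 calls, 50 of them among the 64. Of the 14 genes named by rule, 5 remained called in every fit without 1 library that tested them, with adjusted p of at most 0.0419. Of these, Wls, Hmgn1 and Zfp36 were tested in all 8 such fits, and Socs3 and Marcksl1 in only 5. Wls was not called with equal numbers of astrocytes per library (1.33, adjusted p = 0.0572), nor Hmgn1 with cocaine libraries in place of saline (-1.79, adjusted p = 0.154). The other 9 lost the call without at least 1 library: Agxt2l1, Gpx8, Efemp1, Hhatl, Abhd3, Hrsp12, Ier2, Pfn1 and Sst all did so without P21 library 2 and without P21 library 3, with adjusted p up to 0.186.

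In what follows P21 values are in library order and P60 values in the order maintenance, 48 h (2 libraries) and 15 days (2 libraries). Wls, the carrier that brings Wnt proteins to the cell surface (chromosome 3, 159502701 to 159598797, mm9), was at 36.5, 58.1 and 52.4 CPM at P21 and at 140, 178, 180, 135 and 116 CPM at P60. It rose by 1.68 ± 0.29 on the log2 scale (SE), with an adjusted p of 0.00862. Agxt2l1 (chromosome 3, 130320366 to 130338668) was at 78.6, 48.5 and 17.5 CPM at P21 and at 227, 164, 192, 165 and 223 CPM at P60, a rise of 1.70 ± 0.32 with an adjusted p of 0.0163. All P60 libraries lay above all P21 libraries for both genes, as is asked of genes named by rule. Agxt2l1 is also among the genes most particular in level to P60 astrocytes. Efemp1, the extracellular matrix protein fibulin-3 (chromosome 11, 28753204 to 28826743), was at 9.82, 0 and 0 CPM at P21 and at 39.3, 64.2, 84.5, 47.3 and 47.6 CPM at P60, a rise of 2.80 ± 0.56 (adjusted p = 0.0214).

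Abhd3, a phospholipase of medium-chain lipids, was at 203, 136 and 157 CPM at P21 and at 509, 571, 456, 311 and 329 CPM at P60, a rise of 1.30 ± 0.28 (adjusted p = 0.0332). The 15-day libraries were the lowest of the P60 values, as they were for Hhatl and Hrsp12. With the 15-day saline libraries alone, Abhd3, Hhatl and Hrsp12 each lost the call. Hhatl, a membrane protein related to hedgehog acyltransferase, rose by 1.64 ± 0.35 (adjusted p = 0.0287), from a mean of 28.8 to 110 CPM. Hrsp12, an enzyme that disarms reactive imines, rose by 1.09 ± 0.24 (adjusted p = 0.0363), from 182 to 392 CPM, and the end of its transcript has another genomic copy. Rpe65, the leading gene of Astro 2, was the other gene called higher. It was at 4.21, 0 and 0 CPM at P21 and at 45.1, 35.7, 39.4, 38.2 and 31.0 CPM at P60 (adjusted p = 0.00862), and its mean was below the 50 CPM asked of genes named by rule.

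**Figure D4:**
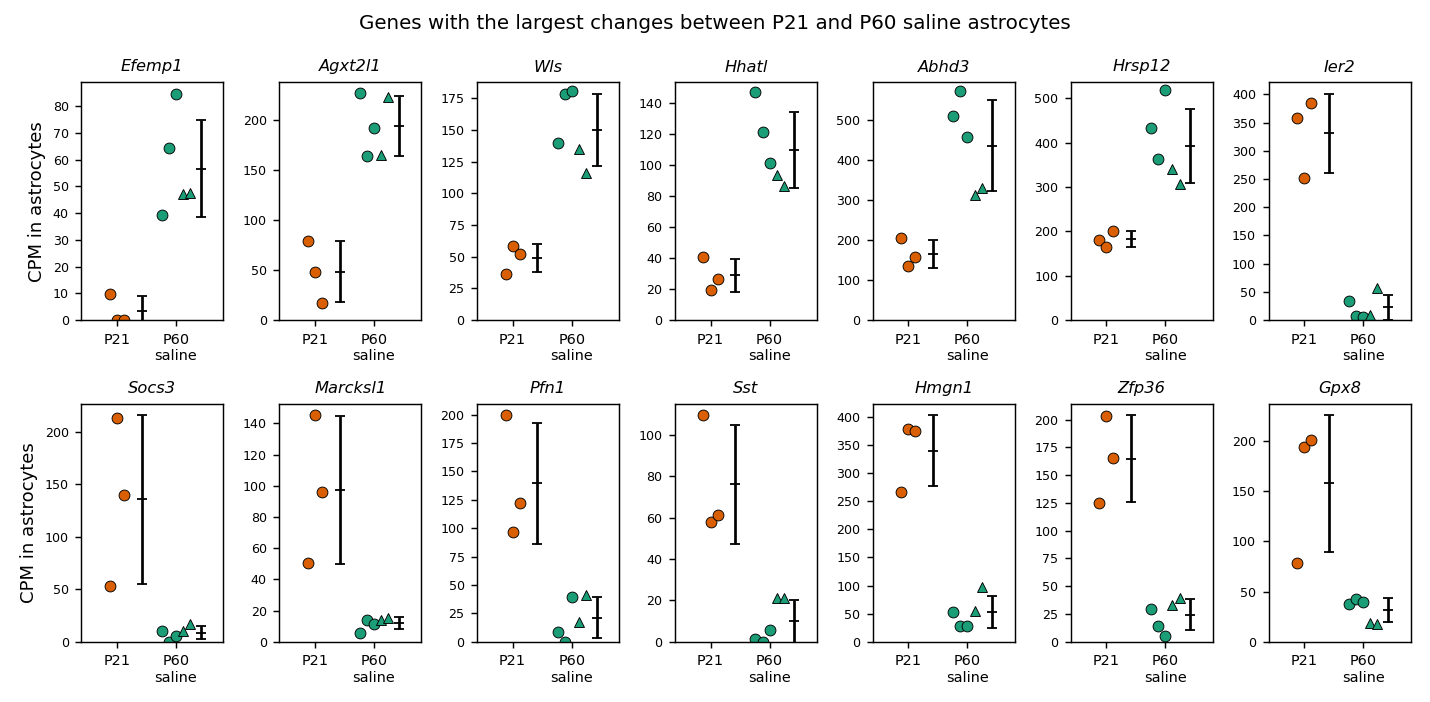
CPM in the astrocytes of each P21 library (orange) and each P60 saline library (green, with triangles for 15 days of withdrawal) for the named risers, 6 in all, and the named fallers, 8 in all, with mean and SD as bars to the right of the points. The libraries of the 2 ages are separate in all 14 panels because the rule that named the genes asks for it. Wls is at 36.5 to 58.1 CPM against 116 to 180 CPM, and Hmgn1 at 267 to 378 CPM against 28.2 to 97.4 CPM.

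The largest falls were led by immediate early genes, which are induced within minutes by many stimuli. The tissue was dissociated with papain before the cells were captured, and the part of that step in these levels was not tested. Of 30 listed, 20 were tested, all 20 were lower at P60 and 7 were called, against 0.985% of all genes tested. Their median change was -1.81 on the log2 scale, beside 0.02 over all genes tested. Ier2 was at 358, 252 and 384 CPM at P21 and at 33.4, 7.14, 5.63, 9.05 and 57.6 CPM at P60, and fell by 3.60 ± 0.57 (adjusted p = 0.0287). Socs3, the feedback inhibitor of cytokine signaling through STAT3 (chromosome 11, 117827393 to 117831361), was at 53.3, 213 and 140 CPM at P21 and at 10.2, 0, 5.63, 10.1 and 16.6 CPM at P60, and fell by 3.43 ± 0.48 (adjusted p = 0.00295). No P60 library reached the lowest P21 library for either gene, as is asked of genes named by rule. Zfp36, tristetraprolin, which marks short-lived mRNAs for decay (chromosome 7, 29161803 to 29164274), was at 125, 204 and 166 CPM at P21 and at 29.1, 14.3, 5.63, 33.2 and 39.9 CPM at P60, and fell by 2.46 ± 0.33 (adjusted p = 0.002). With cells that class and cluster both name as astrocytes, the fall of Zfp36 was 2.04 ± 0.49 and no longer called (adjusted p = 0.0767).

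Jun, a subunit of AP-1, was at 251, 378 and 367 CPM at P21 and at 105, 71.4, 45.1, 66.4 and 114 CPM at P60 (-1.93 ± 0.26, adjusted p = 0.002). Nfkbia, the inhibitor that holds NF-κB in the cytoplasm, was at 403, 533 and 506 CPM at P21 and at 188, 128, 141, 126 and 196 CPM at P60 (-1.58 ± 0.21, adjusted p = 0.002). Nr4a1, an orphan nuclear receptor, fell by 2.07 ± 0.36 (adjusted p = 0.00862), and Dusp1, a phosphatase of MAP kinases, by 1.41 ± 0.32 (adjusted p = 0.0431). Both were again separate between the ages, with Dusp1 at 125 to 262 CPM at P21 and 21.4 to 93.0 CPM at P60. At P60 all 7 called early genes were higher in microglia or endothelial cells than in astrocytes: for example, Zfp36 was at 27.3 CPM in astrocytes and 1828 CPM in microglia, Nfkbia at 156 and 6532 CPM in the same types, and Jun at 83.8 CPM in astrocytes and 1340 CPM in endothelial cells. All P21 libraries were above every tested P60 saline library for all 7. Libraries of the 2 ages were separate in 62 of the 64 called genes, so this is no trait of these 7. P21 library 2, of 42 astrocytes, held 0 CPM of microglia markers and 38.8 CPM of endothelial markers. It was the highest P21 library for Zfp36, Socs3, Jun and Nfkbia, the lowest for Ier2 and the middle one for Nr4a1 and Dusp1. The part of RNA from other cells in these falls was not tested. Fos, the best known of the group, did not pass the test. It was at 1041 CPM in P21 library 1, inside the P60 range of 400 to 1360 CPM, and at 5126 and 4828 CPM in P21 libraries 2 and 3 (-2.20 ± 0.57, adjusted p = 0.147). Egr1 and Cyr61 had the same split, with 149 against 649 and 602 CPM and 99.6 against 1066 and 969 CPM.

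Promoter windows of 3 of the called early genes are shown because these genes are textbook targets of signal-driven factors and fell together. Each runs from 250 bases before to 50 bases after the start, 5′ to 3′ on the strand of the gene, as given by RefSeq on GRCm38.p6: chr17:26508423-26508722 for Dusp1, chr7:28379179-28379478 for Zfp36 and chr12:55492598-55492897 for Nfkbia, all on the minus strand. Capitals mark a match, on either strand, to the cyclic AMP response element (TGACGTCA) in Dusp1, to the serum response element in Zfp36 and to the NF-κB element in Nfkbia.
Dusp1: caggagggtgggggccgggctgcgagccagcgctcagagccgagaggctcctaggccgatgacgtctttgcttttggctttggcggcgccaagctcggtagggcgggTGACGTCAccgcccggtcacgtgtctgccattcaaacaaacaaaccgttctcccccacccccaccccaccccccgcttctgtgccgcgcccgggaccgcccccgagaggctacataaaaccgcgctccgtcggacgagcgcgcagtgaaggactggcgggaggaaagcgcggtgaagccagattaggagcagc
Zfp36: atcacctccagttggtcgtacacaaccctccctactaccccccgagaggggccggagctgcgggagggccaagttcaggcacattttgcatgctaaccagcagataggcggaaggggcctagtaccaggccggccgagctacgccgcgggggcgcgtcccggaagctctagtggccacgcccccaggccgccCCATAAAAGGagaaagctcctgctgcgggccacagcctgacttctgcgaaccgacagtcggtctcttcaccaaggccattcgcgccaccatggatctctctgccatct
Nfkbia: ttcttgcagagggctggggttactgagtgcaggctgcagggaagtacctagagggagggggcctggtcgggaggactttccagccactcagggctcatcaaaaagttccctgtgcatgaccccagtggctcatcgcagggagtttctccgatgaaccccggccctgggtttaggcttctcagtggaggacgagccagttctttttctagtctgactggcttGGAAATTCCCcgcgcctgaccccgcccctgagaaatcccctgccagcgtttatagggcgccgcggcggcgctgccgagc
Of 7 called early genes, 6 had a window. The cyclic AMP response element was found in 1 of the 6 and in 1.79% of 32851 windows, the serum response element in 1 of the 6 and in 1.63%, and the NF-κB element in 2 of the 6 (Nfkbia and Nr4a1) and in 4.51%. The matches describe the windows and no binding was measured.

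Genes of immature glia and of growth formed a second group, of which 23 of 33 were tested and 3 were called, all lower at P60, beside 0.985% of all genes. Marcksl1, a regulator of actin and a substrate of protein kinase C (chromosome 4, 129190825 to 129193229), was at 50.5, 145 and 96.0 CPM at P21 and at 5.82, 14.3, 11.3, 14.1 and 15.5 CPM at P60. It fell by 2.82 ± 0.41 (adjusted p = 0.00307), and the end of its transcript has another genomic copy. Fabp7, the brain lipid-binding protein of radial glia and young astrocytes, was at 871, 1037 and 1537 CPM at P21 and at 327, 407, 603, 416 and 282 CPM at P60, and fell by 1.5004 ± 0.25 (adjusted p = 0.00646). Dbi, an acyl-CoA binding protein, was at 4749, 7471 and 10547 CPM at P21 and at 3599, 3269, 4395, 2633 and 2673 CPM at P60, and fell by 1.17 ± 0.25 (adjusted p = 0.0332). P21 library 1 was the lowest of the P21 libraries for these 3 genes but still above every P60 library. The list as a whole spread both ways, with 9 of the 23 higher and 14 lower, the called ones included, and a median of -0.52. Igfbp5, which binds insulin-like growth factors, had the lowest fitted value of the list and was not called: it was at 60.3, 882 and 1257 CPM at P21 and at 36.4 to 70.4 CPM at P60 (adjusted p = 0.132).

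Among genes of the Notch, hedgehog, BMP and Wnt pathways and their factors, 30 of 47 were tested, 25 were lower at P60 and 3 were called, all lower, beside 0.985% of all genes, with a median of -0.47. Notch2, a receptor of the pathway, was at 78.6, 145 and 87.3 CPM at P21 and at 18.9, 14.3, 22.5, 27.2 and 46.5 CPM at P60, and fell by 1.796 ± 0.34 (adjusted p = 0.0161). Hey1, a repressor that Notch induces, was at 111, 136 and 140 CPM at P21 and at 30.5, 28.5, 33.8, 36.2 and 67.5 CPM at P60, and fell by 1.61 ± 0.30 (adjusted p = 0.0136). Id1, a target of BMP signaling, fell by 1.88 ± 0.31 (adjusted p = 0.01), from 194, 388 and 681 CPM at P21 to between 92.8 and 119 CPM at P60. The 3 genes had separate libraries at the 2 ages, as had 62 of all 64 called genes. Id1 was at 3285 CPM in endothelial cells at P60, beside 99.8 CPM in astrocytes. Notch1 (-0.39), Hes5 (-0.54) and the astrocyte factors Sox9 (-0.52) and Nfia (-0.58) had smaller negative values and were not called, while Hes1 (0.48) and Nfib (0.46) had positive ones. The Wnt receptor Fzd2 had the highest value of the list, 1.09, and was not called.

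Lipid and matrix genes held single large falls. Of 25 tested genes of lipoproteins and fatty acids, 2 were called lower, beside 0.985% of all genes here and in the next lists: Fabp7 and Scd2, the stearoyl-CoA desaturase of brain, at 634, 1143 and 1449 CPM at P21 and at 487, 592, 468, 604 and 445 CPM at P60 (-1.02 ± 0.22, adjusted p = 0.0332). Apoe, the main lipoprotein of astrocytes, was at 32576, 14826 and 13193 CPM at P21 and at 4304, 3740, 3104, 2304 and 9184 CPM at P60 and was not called (-2.19 ± 0.51, adjusted p = 0.108). The 10 microglia markers summed to 1730, 0 and 410 CPM in these P21 libraries, and the part of microglial RNA in the Apoe values was not tested. Over the P60 libraries Apoe was at 6943 ± 5476 CPM in astrocytes, above every other type, with oligodendrocyte precursors next at 3011 CPM. Of 22 tested genes of cholesterol synthesis none was called, with 13 higher, 9 lower and a median of 0.08. Sparc, a matricellular protein that limits synapse formation (chromosome 11, 55208002 to 55233582), was the single call among 21 tested secreted and matrix genes: 585, 872 and 882 CPM at P21 against 307, 143, 175, 186 and 161 CPM at P60 (-1.94 ± 0.25, adjusted p = 0.002). Over the P60 libraries Sparc was at 215 CPM in astrocytes and at 4170 CPM in microglia. Lrp4, a receptor for agrin, was the single call among 15 tested genes of phagocytosis and its receptors, at 108, 271 and 227 CPM at P21 and 30.5, 92.8, 28.2, 40.2 and 36.5 CPM at P60 (-2.20 ± 0.35, adjusted p = 0.00646).

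Other large falls belonged to no fixed list. Hmgn1, a nucleosome-binding protein that loosens chromatin (chromosome 16, 96342225 to 96349336), was the gene with the lowest adjusted p (0.00136): it was at 267, 378 and 375 CPM at P21 and at 52.4, 28.5, 28.2, 55.3 and 97.4 CPM at P60, and fell by 2.51 ± 0.29. Pfn1, which feeds actin monomers to growing filaments, fell by 2.78 ± 0.53 (adjusted p = 0.0387), from a mean of 139 to 21.2 CPM. Gpx8, a peroxidase of the endoplasmic reticulum, fell by 2.35 ± 0.40 (adjusted p = 0.00862), from 158 to 31.4 CPM. Sst, the neuropeptide of an interneuron class, was also called (-2.73 ± 0.56, adjusted p = 0.0387). It was at 109, 58.1 and 61.1 CPM in P21 astrocytes. At P60 it was at 0 to 5.63 CPM in the tested maintenance and 48 h saline libraries and reached 21.1 CPM at 15 days. The summed neuron markers were above P21 (786 to 1457 CPM) only at 15 days, at 5441 and 9812 CPM. Sst also had lower fitted values at P60 in endothelial cells (-1.79), mature oligodendrocytes (-2.95) and excitatory neurons (-1.89), called only in the last. The part of interneuron RNA in the fall of Sst was not tested. The ends of 5 of the 57 lower genes (8.77%) have another genomic copy at 95% identity or more over 200 bases, beside 514 of the 5713 tested genes that could be checked.

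All 30 genes of the astrocyte identity list were tested and 0 were called, beside 0.985% lower and 0.121% higher among all genes, with a median of 0.08 and values from -2.74 for Gfap to 1.02 for F3. By the unadjusted p under 0.05, 9 of the 30 would pass, 6 lower and 3 higher at P60, beside 809 of the 5788 genes tested (13.98%). Gja1 differed by 0.07 ± 0.23, Aqp4 by -0.01 ± 0.25 and Slc1a3 by 0.14 ± 0.21. Gfap was at 237, 1124 and 1659 CPM at P21 and at 37.8, 207, 332, 144 and 74.2 CPM at P60, so that P21 library 1 lay inside the P60 range (adjusted p = 0.235). Of 20 tested genes of transmitter and ion clearance none was called. The glutamate transporter Slc1a2 was at 5286, 6822 and 6959 CPM at P21 and at 3853 to 4753 CPM at P60, and the potassium channel Kcnj10 at 140 to 204 CPM and at 99.6 to 119 CPM, each without overlap but with adjusted p of 0.184 and 0.119. The share of genes without overlap over all genes tested is not given here.

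Of 12 tested genes of gap junctions and endfeet and of 77 tested nuclear genes of oxidative phosphorylation none was called, with medians of 0.05 and -0.02. Of 24 tested genes of glycolysis and glycogen none was called either, but 21 had positive values, with a median of 0.41. Gapdh was at 1284, 678 and 594 CPM at P21 and at 1192 to 2056 CPM at P60 (1.00 ± 0.28, adjusted p = 0.117), and Eno1 at 1440, 407 and 437 CPM and at 1535 to 2113 CPM (1.10 ± 0.45, adjusted p = 0.332). P21 library 1 was nearest to P60 for both. Heat shock genes (18 tested, median 0.02), receptors for transmitters and growth factors (21 tested, median 0.21) and markers of reactive astrocytes (6 tested, median -0.80) held no call. The 14 tested glucocorticoid-responsive genes held 2 calls, Nfkbia and Dusp1, which are also on the early gene list, beside 0.985% of all genes called lower. Of 24 tested genes that mark cortical layers or regions in astrocytes, Sparc and Id1 were called, beside the same 0.985%.

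The same libraries allow the age change in astrocytes to be set against that in other cells. Endothelial cells, mature oligodendrocytes and excitatory neurons have more cells and more calls in the same kind of test: 12.7%, 17.9% and 19.3% of the genes tested. Of the 64 genes called in astrocytes, 30 of 58 tested were called in the same direction in endothelial cells, 25 of 50 in mature oligodendrocytes and 46 of 62 in excitatory neurons. Falls of Marcksl1, Pfn1, Sparc and Fabp7, among others, were called in all 3 of the other types. In endothelial cells these 4 were at -2.85, -2.63, -1.64 and -2.32. Falls of Hey1 and Notch2 were called in endothelial cells and excitatory neurons, and the genes were not tested in mature oligodendrocytes alone. For these named genes no difference from astrocytes was called. The difference itself was tested with astrocytes and the other type of each library paired. Of the 64, it was called for 15 against endothelial cells, 14 against mature oligodendrocytes and 4 against excitatory neurons. The 64 were chosen by their astrocyte change in the same libraries, which favors such differences. Over all genes the shares called were 0.95%, 2.24% and 0.206% in the same order. Without single libraries these counts over all genes ran from 39 to 128, from 99 to 207 and from 5 to 117, each lowest without P21 library 2 and highest without saline library 2, while the full counts were 101, 181 and 26.

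The early genes were among those that differed. Of 20, 5 fell further in astrocytes than in endothelial cells: Zfp36 by 2.90 ± 0.29 on the log2 scale (adjusted p = 1.91e-08), Jun by 2.12 ± 0.38 (adjusted p = 0.0157), Nr4a1 by 1.64 ± 0.34 (adjusted p = 0.00686), Dusp1 by 1.41 ± 0.27 (adjusted p = 0.00389) and Nfkbia by 1.28 ± 0.23 (adjusted p = 0.0018). In endothelial cells alone their changes were 0.43, 0.14, -0.40, -0.02 and -0.27, and 1 of the 20 was called lower. In excitatory neurons 17 of the 20 were called lower, with a median of -1.18, and no difference from astrocytes was called. Against mature oligodendrocytes 3 fell further in astrocytes and 1 less. Among other genes, Hmgn1 fell further in astrocytes than in all 3 types, and Itm2b, a membrane protein that is cut to release a short peptide, did so too, by 0.96 ± 0.21, 0.85 ± 0.22 and 1.03 ± 0.18 (adjusted p = 0.0118, 0.0224 and 0.00498). Itm2b was at 1906, 2355 and 2104 CPM at P21 and at 530 to 1259 CPM at P60. Wls rose further than in endothelial cells, by 1.53 ± 0.30 (adjusted p = 0.00389), and than in mature oligodendrocytes, by 1.81 ± 0.33 (adjusted p = 0.00069). Gpx8 fell further than in endothelial cells by 2.40 ± 0.30 (adjusted p = 4.53e-06).

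**Figure D5:**
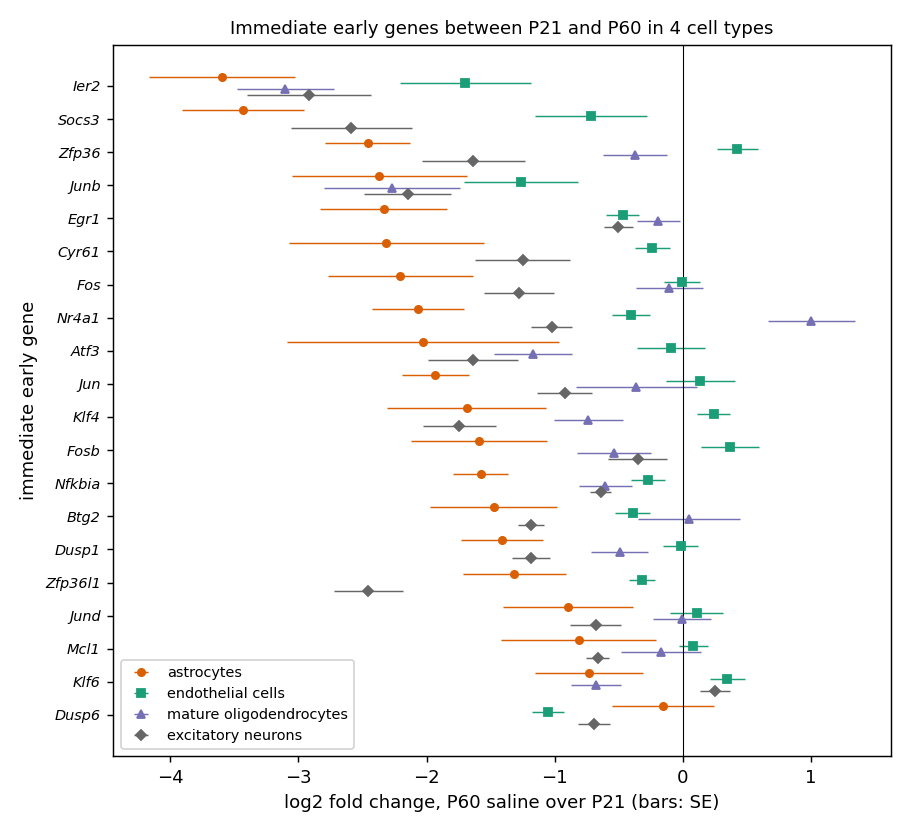
Log2 fold change of P60 saline over P21 with SE for the 20 immediate early genes tested in astrocytes (circles), beside the same genes in endothelial cells (squares), mature oligodendrocytes (triangles) and excitatory neurons (diamonds), where tested. All 20 astrocyte points lie below 0, from -3.60 for Ier2 to -0.15 for Dusp6, while the endothelial points scatter around a median of -0.16.

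Cocaine was compared with saline within the 2 withdrawal times, each with 2 libraries per group, in a fit over the 11 P60 libraries. At 48 h of withdrawal 0 of 7412 genes were called (0%), with 293 under an unadjusted p of 0.05. DESeq2 called 5. At 15 days 1 gene was called (0.0135%), with 320 under an unadjusted p of 0.05, and DESeq2 called 0. Over both times 0 were called (0%), with 353 under an unadjusted p of 0.05 and 0 by DESeq2, and the difference of the cocaine effect between the times gave 0 (0%), with 280 under an unadjusted p of 0.05 and 1 by DESeq2. These counts moved with single libraries. At 15 days they were 79, of which 77 higher, without saline library 12, and 14 without saline library 11, and 0 without either cocaine library. Over both times they were 31 without library 12, 4 without library 5 and 6 without library 6. At 48 h they were 5 without library 5 and 3 without library 6. The difference between the times gave 5 without library 5, 1 without library 11 and 6 without library 12. At maintenance, with saline library 2 alone and its spread assumed to be that of the other groups, 0 of 7412 genes were called by edgeR and 196 were under an unadjusted p of 0.05.

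The astrocyte gene lists held no call under cocaine. The 30 identity genes had medians of 0.01 at 48 h and -0.03 at 15 days, and none was under an unadjusted p of 0.05 at either time. The 12 tested gap junction and endfoot genes had medians of 0.09 and -0.03, the 21 of transmitter and ion clearance -0.09 and -0.05, and the 25 of glycolysis and glycogen -0.07 and -0.03. The 22 genes of cholesterol synthesis had medians of -0.23 and -0.12, beside 0.03 and -0.02 over all genes tested. Early genes had a median of 0.46 at 48 h, with 3 of 22 under an unadjusted p of 0.05, and of -0.05 at 15 days. Markers of other cells moved as well, and their part in these values was not tested. At 48 h the medians were 0.46 for 5 tested endothelial, 0.35 for 7 microglia, 0.77 for 5 oligodendrocyte and 0.32 for 12 neuron markers, with 0 under an unadjusted p of 0.05. The 6 tested markers of ependyma, choroid plexus and blood had a median of -7.00 at 48 h, with 5 under that p and 0 called, and of 0.96 at 15 days. The 48 h value rests on 1 saline library: the full list summed to 21821 CPM in library 7 and to 243 CPM in library 5. The cocaine libraries held 202 and 171 CPM. At 15 days all 7 microglia markers had lower fitted values with cocaine (median -1.40). Their full list summed to 106 and 391 CPM in saline and to 115 and 101 CPM in cocaine, so 1 saline library lay inside the cocaine range. All 5 endothelial markers (median -1.93, 3 under an unadjusted p of 0.05) and all 5 oligodendrocyte markers (median -1.14) were lower as well. The full endothelial list summed to 210 and 296 CPM in saline and to 63.6 and 165 CPM in cocaine. For oligodendrocytes the sums were 652 and 668 CPM against 429 and 307 CPM. Neuron markers had a median of 0.09. Fos was at 879 and 686 CPM in the cocaine and at 578 and 400 CPM in the saline libraries at 48 h (0.69 ± 0.20, adjusted p = 0.994), and at 603 and 748 CPM and at 663 and 773 CPM at 15 days. Of the dopamine receptors, Drd2 was at 0 UMIs in the astrocytes of all 14 libraries, and Drd1a at 0 to 11.2 CPM in P60 libraries, with 11 UMIs in all. With 2 libraries per group and 49 to 222 astrocytes in each, the fits leave SEs such as the 0.70 of Gfap at 48 h (-0.90 on the log2 scale, adjusted p = 0.994), so a missing call does not show that a gene was alike in cocaine and saline astrocytes.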

How the data were processed

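The deposited tables hold raw UMI counts per gene and cell, which the authors made from 10x 3′ libraries with Cell Ranger on mm9 (NCBIM37) and Seurat 2.1.0, and, in the cell table, the mitochondrial fraction, class and cluster that the authors gave each retained cell. The authors removed doublets, cells over 10% mitochondrial UMIs and, among non-neuronal cells, those under 800 genes, and named P21 cells by correlation with P60 clusters.

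Of 26145 genes, 13 mitochondrial and 154 ribosomal ones (8.86% to 11.1% of UMIs in a library) were set aside. UMIs were summed over the astrocytes of each library with at least 10, and tested with the quasi-likelihood test of edgeR 4.0.16 (R 4.3.3, filterByExpr, TMM, robust dispersion, Benjamini-Hochberg adjustment over all genes tested). Called genes have an adjusted p under 0.05 and over 1.5-fold change. ± is the SE for log2 changes and the SD for levels. The fit was also run on counts simulated with the spread fitted to these data. The simulated libraries held no shared animals and no differences between time points, so that run does not bear on these limits. DESeq2 1.42.0 was an alternative, and shares and medians were tested by exact permutation.

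Genes named by rule were called, had separate libraries and a mean of 50 CPM in the higher group, and were taken by size of change, up to 8 in each direction, which gave 6 rises and 8 falls. Astrocytes, the gene lists and the tests were chosen with earlier results of these data known. Coordinates are those of the mm9 annotation where named so, and promoter windows are of GRCm38.p6. Genomic copies of transcript ends (last 300 bases) were searched with minimap2 2.31. Intervals of shares cover counting error only. The gene called at 15 days of withdrawal is not reported here.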

Additional observations from a re-analysis of the deposited data

Results flagged for a closer look

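Of the 14 genes named in the age comparison, 5 had an age change that differed from that of another cell type. This was a test of the difference itself (edgeR, libraries as blocks, adjusted over all genes). The 14 were picked for large astrocyte changes in the same libraries, which favors such differences. Over all genes, the difference was called for 0.95% against endothelial cells, 2.24% against mature oligodendrocytes and 0.206% against excitatory neurons. The differences are log2 values of the astrocyte change minus that of the other type. The rise of Wls exceeded that in endothelial cells by 1.53 (adjusted p = 0.00389) and that in mature oligodendrocytes by 1.81 (adjusted p = 0.00069). The rise of Hrsp12 exceeded that in endothelial cells by 1.06. Hmgn1 differed from all 3 types, at -1.10 against endothelial cells (adjusted p = 0.0133), -1.14 against mature oligodendrocytes (adjusted p = 0.0412) and -1.41 against excitatory neurons (adjusted p = 0.0218). Zfp36 differed by -2.90 from endothelial cells and by -1.87 from mature oligodendrocytes (adjusted p = 0.00109), and Gpx8 by -2.40 from endothelial cells. The part of RNA from other cells in these differences was not tested. Of 16 groups of values examined for a library far from the rest, 0 held one. The critical values were those for 5 or 6 libraries, so the 3 P21 libraries and the groups of 2 were not covered.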

How the results depend on the processing

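The age count of 64 was 99 with DESeq2, 352 with no filter on low counts, 158 with all P60 libraries, 276 with the 15-day saline libraries alone, 158 with those of maintenance and 48 h alone, 126 without astrocytes of 2 or more neuron marker UMIs, 483 with the deposited class (405 P21 cells), 11 with Bonferroni and 34 with P21 libraries 2 and 3 summed. It was 235 with the neuron marker share as a covariate, an alternative chosen after seeing the data, as was the use of cells named by both class and cluster or of cocaine libraries in place of saline. Without single libraries it ran from 25 to 192.

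At 48 h the cocaine count of 0 was 5 with DESeq2, 2 with no filter, 1 without neuron marker UMIs and 1 with its own libraries alone, and 0 to 5 without single libraries. At 15 days the count of 1 was 0 with DESeq2 and with its own libraries alone, 2 with DESeq2 size factors and with equal cell numbers, 42 with no filter, 10 without neuron marker UMIs and 26 with the covariate, and 0 to 79 without single libraries. Over both times it was 6 with no filter, 6 without neuron marker UMIs, 1 with the covariate and 0 to 31 without single libraries. The difference between the times gave 1 with DESeq2, 3 with no filter, 1 without neuron marker UMIs and 0 to 6 without single libraries. Differences of the age change from endothelial cells numbered 201 with no filter and 39 to 128 without single libraries, from mature oligodendrocytes 99 to 207 and from excitatory neurons 5 to 117. The cocaine difference in astrocyte share turned to 0.189 points among non-neuronal cells and ran from -3.93 to 2.44 points without single libraries. The cause of these shifts was not tested. Of 323 values of the 14 genes named by rule in the age comparison under the alternatives, 251 kept the call, 72 lost it and 0 turned direction.

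A fit of the largest sub-cluster alone was not run for the age comparison, since P21 astrocytes carry no sub-cluster. No paired analysis was possible because the labels give libraries of different groups no shared animal or batch, and replicate numbers here follow the order of deposit. Cell types were compared within libraries. Depth limits P21 most: libraries 2 and 3 hold 42 and 52 astrocytes.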

Other observations

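Myoc and Gfap, the leading genes of Astro 3, varied widely between libraries. Myoc, whose protein myocilin is secreted, was at 200 and 113 CPM in the saline and at 2.50 and 0 CPM in the cocaine libraries at 48 h. At 15 days it was at 64.4 and 18.8 CPM in saline and at 57.6 and 123 CPM in cocaine astrocytes, and at maintenance at 0 CPM in saline library 2 and at 22.7 and 4.08 CPM with cocaine. The 48 h difference had an adjusted p of 0.994 in edgeR, and the gene was picked out after its values were seen. At P21 it was at 42.1, 155 and 262 CPM. Gfap at 48 h was at 207 and 332 CPM in saline and at 87.4 and 203 CPM in cocaine astrocytes, in the same order of groups.

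P21 library 1 stood apart from the other 2 P21 libraries in several genes at once. Fos, Igfbp5, Gfap and Cyr61 were at 1041, 60.3, 237 and 99.6 CPM in it, against 4828, 882, 1124 and 969 CPM or more in the others, while Gapdh was at 1284 CPM against 678 and 594 CPM. It held 227 of the 321 P21 astrocytes.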
